A study of Homo sapiens with 6 samples.

Results

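The genes described here are the early growth response (EGR) zinc finger transcription factors, their NAB co-repressors, 3 immediate early response genes of the IER group, and SRF, the serum response factor that switches many of these genes on. They were taken from a list of 10 symbols, EGR1, EGR2, EGR3, EGR4, NAB1, NAB2, IER2, IER3, IER5 and SRF. Probe sets that map to 1 gene were found for 9 of them, with 26 probe sets in all, among 18244 genes on the array. EGR2 was not analysed here. For every gene 1 probe set was used, chosen by the highest mean log2 intensity over the 6 arrays. That mean takes in the groups where a gene is high, so the choice can be tied to the differences between groups. After 24 hours of c-Myc release (high-Myc) the EGR3 probe set used read 28.4 and 33.7, and another of its probe sets 37.3 and 33.8. For EGR4 the probe set used read 15.8 and 20.9 there, and its other 22.2 and 19.7. All 9 probe sets lay above the filter level of 33.8 intensity, which left 12198 genes in the test, and the closest to it was EGR4 at 34.4. EGR3 and EGR4 read below that level on both high-Myc arrays, so they entered the test through the other groups. The list was drawn up with earlier results on these arrays known, and EGR1 and EGR3 had been singled out there, so the tests below describe these genes and are no independent evidence for choosing them.

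The cells were P493-6, a human B-cell lymphoma line that carries a c-Myc transgene held off by tetracycline. The low-Myc cells had c-Myc released for 0 hours, the mid-Myc cells for 1 hour and the high-Myc cells for 24 hours, with 2 arrays in each group, which the design text calls biological duplicates. All 3 groups carry the transgene and grew in the same medium. For mid-Myc samples 1 label field gives 0 hours and another 1 hour, and 1 hour is followed here because the group is described as moderate in c-Myc. ERCC synthetic RNAs were added to every sample by cell number. Of 6 B cell markers 5 passed the filter. The B cell surface gene MS4A1 had a mean of 12704 at 0 hours (low-Myc), 12645 at 1 hour (mid-Myc) and 9516 at 24 hours (high-Myc), and the antigen receptor partner CD79B had 3420.2, 3805 and 1100.4 in the same order. CD22 and CD79A were also lowest at 24 hours, whereas the B cell transcription factor gene PAX5 had 835, 817 and 903. The T cell receptor chain gene CD3D stayed below the filter, at 18.7, 18.4 and 20.6. Of 6 T cell markers 4 passed the filter and of 6 monocyte markers 2. Their summed intensities were lower in the high-Myc arrays, at 185 to 198 against 271 in low-Myc arrays for the T cell list and at 496 to 522 against 1330 to 1348 for the monocyte list, most of it LYZ. These intensities are as deposited. On the per-cell scale explained below 3 of 5 B cell markers were called higher at 24 hours and 1 lower. Of 4 T cell markers 3 were higher and 1 lower, and of 2 monocyte markers 0 and 1 (limma, all genes 90.8% and 2.53%). On the equal-median scale, also explained below, these counts were 1 and 4, 0 and 1, and 0 and 1 (all genes 37.7% and 26%). The part of these marker differences in the results below was not tested.

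As background, EGR factors are induced within minutes when a growth factor, an antigen or a stress signal reaches a cell, through kinases of the ERK cascade that act on SRF and its ETS-family partners at CArG boxes. EGR proteins then bind GC-rich sites, and a gene they are known to switch on is NAB2, whose product binds EGR1 and represses it, which closes a feedback loop. NAB1 is a related co-repressor. In B cells EGR1 is a classic early target of the antigen receptor, and EGR3 is known as a brake on lymphocyte activation.

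Promoters of EGR1, SRF and NAB2 are shown here because SRF sites and EGR sites are the known inputs of this loop. Windows of 300 bases, from 250 before to 50 after the annotated start, came from RefSeq on build GRCh38.p14. They were read for 7 of the genes, EGR1, EGR4, IER2, IER5, NAB1, NAB2 and SRF, in 10 windows. No window of EGR3 or IER3 was read, so the counts below do not cover these genes. Capitals mark CArG boxes in EGR1 and SRF, and the EGR site in NAB2.
EGR1, chr5:138465229-138465528, plus strand: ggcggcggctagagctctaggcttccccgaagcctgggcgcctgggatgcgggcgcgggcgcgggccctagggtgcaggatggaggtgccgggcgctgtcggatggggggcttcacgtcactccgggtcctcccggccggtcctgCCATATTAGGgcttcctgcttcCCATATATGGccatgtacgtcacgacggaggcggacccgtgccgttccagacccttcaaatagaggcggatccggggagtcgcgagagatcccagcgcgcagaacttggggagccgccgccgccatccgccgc
SRF, chr6:43171019-43171318, plus strand: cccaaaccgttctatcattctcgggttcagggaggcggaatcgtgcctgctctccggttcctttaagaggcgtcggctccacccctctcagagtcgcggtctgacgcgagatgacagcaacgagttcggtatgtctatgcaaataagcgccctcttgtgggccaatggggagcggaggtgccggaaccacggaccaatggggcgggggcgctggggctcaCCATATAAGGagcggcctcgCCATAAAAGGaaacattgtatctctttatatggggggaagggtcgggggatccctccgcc
NAB2, chr12:57088864-57089163, plus strand: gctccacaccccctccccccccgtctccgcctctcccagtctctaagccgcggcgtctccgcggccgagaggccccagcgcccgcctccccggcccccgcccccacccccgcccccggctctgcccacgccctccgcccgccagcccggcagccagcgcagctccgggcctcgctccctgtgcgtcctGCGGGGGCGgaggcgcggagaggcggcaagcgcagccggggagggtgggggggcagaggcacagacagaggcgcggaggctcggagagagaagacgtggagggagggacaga
Counting the first transcribed base as 1, the boxes of EGR1 lie at -105 to -96 and at -83 to -74, those of SRF at -30 to -21 and at -10 to -1, and the EGR site of NAB2 at -62 to -54. Among the 10 windows the CArG box was in 2, against 1.29% of 35116 promoters searched in the same way on both strands. The EGR site GCGNGGGCG was in 5 windows of 4 genes, EGR1, NAB1, NAB2 and SRF, against 9.43% of all promoters. The E-box CACGTG, the motif of MYC and MAX, was in 0 of the 10, against 7.26%. The full cAMP response element TGACGTCA was in 0, against 1.85%, and its shorter form TGACG was in 7 windows of 5 genes, against 24.6%. The full element contains the shorter form. Windows of NAB1 overlap and share EGR sites and a TGACG, so the same bases are counted more than once. A match describes letters in these windows and is not evidence of binding.

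Intensities were compared on 2 scales, since the study added the ERCC RNAs to ask how scaling changes the reading of expression. The per-cell scale subtracts from each array a curve through its ERCC probe sets. The equal-median scale gives every array the same median over human probe sets. The 100 ERCC probe sets had a median change of -0.79 (log2, as deposited) in high-Myc against low-Myc arrays and of -0.30 in mid-Myc against low-Myc arrays. The median tested gene was accordingly 0.97 (log2) higher per cell at 24 hours and 0.30 higher at 1 hour, but 0.05 and 0.09 higher on the equal-median scale. A per-cell rise near those medians is shared by most genes on the array. Replicates correlated at r = 0.996 across genes in each group.  The table holds no detection calls. Of 23 background probe sets that match no human transcript 7 lay above the filter. Their median intensity was 12.4 over all 23, the second-brightest read 194 and the brightest 694, so dim values cannot be separated from background. At 24 hours against low-Myc these 23 changed by -0.13 to 1.56 per cell (log2, median 0.21) and by 0.04 to 0.44 at an equal median. The P values are limma's, with Benjamini-Hochberg adjustment over all 12198 genes, and with 2 arrays a group they lean on a spread borrowed from all genes. Both comparisons against low-Myc use the same low-Myc arrays.

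EGR1 and EGR3, 2 EGR factors with the same kind of DNA-binding domain, went opposite ways in the first hour and both were lower than in low-Myc cells at 24 hours. EGR1 was bright in the cells with c-Myc held off, lower at 1 hour and near the filter level at 24 hours. EGR3 was higher at 1 hour than before release. At 24 hours 4 of the 9 genes, EGR1, EGR3, EGR4 and IER2, had fallen per cell, and the other 5 had risen (all limma adjusted p at most 0.0124). Across all tested genes 2.53% were called lower and 90.8% higher per cell in that comparison. With arrays at an equal median 5 of the 9 were lower and 3 higher at 24 hours, against 26% and 37.7% of all genes. The median change of the 9 was 0.90 per cell and -0.15 at an equal median.

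**Figure D1:**
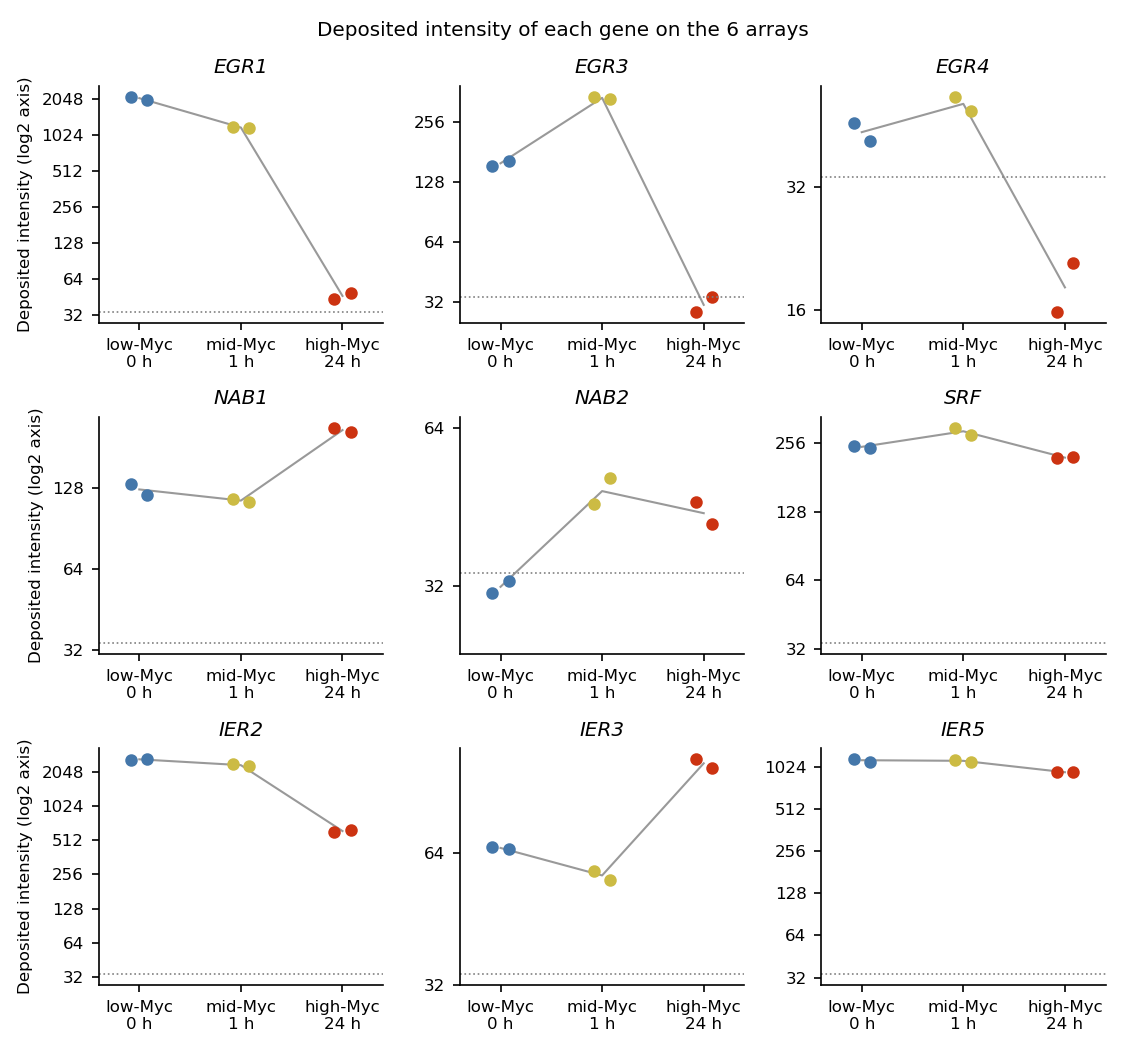
Deposited intensity (log2 axis) of the probe set of each of the 9 genes on the 6 arrays, by hours after release. Points are arrays, lines join the group means of log2 values, and the dotted line is the filter level of 33.8. EGR1 steps down at both times, EGR3 peaks at 1 hour and NAB1 and IER3 stand highest at 24 hours.

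EGR1, the best known of the family and a switch for growth and differentiation genes, read 2149.7 and 2039 on both low-Myc arrays, 1199.8 and 1178 on the mid-Myc arrays and 43.5 and 49.3 on the high-Myc arrays. No array of any group overlapped another group, and the order of the groups was low-Myc, mid-Myc, high-Myc from high to low. Per cell the 24-hour change was -4.21 (log2, SE 0.07, limma adjusted p = 2.11e-11), or 18.5-fold lower. The equal-median value was -5.36 (SE 0.07, limma adjusted p = 6.97e-15), or 41.1-fold lower. The 2 high-Myc arrays lay close to the filter level, so the size of this fall is uncertain. From bulk RNA, less transcript in each cell and fewer cells with the transcript cannot be told apart.

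After 1 hour EGR1 was already lower, with changes of -0.43 on the log2 per-cell scale (SE 0.07, limma adjusted p = 3.32e-04) and -0.67 on the equal-median scale (SE 0.07, limma adjusted p = 3.04e-05). Falls were rare then on these scales, with 0.697% of all genes called lower per cell and 3.39% at an equal median. Other scalings gave more falls at 1 hour than the 414 genes at an equal median. These were 1195 with quantile normalization, 1489 as deposited, 1034 with cyclic loess and 1077 when centred on the tested genes. Of the 9 genes EGR1 was the one called lower in that comparison on both scales, and its change was the 31st lowest of 12198 per cell. Between 1 and 24 hours it fell by 3.78 per cell (SE 0.07, limma adjusted p = 6.56e-11).

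EGR1 had 6 probe sets, all above the filter. The other bright ones had means of 339 and 307 intensity and changed by -4.65 and -3.73 per cell at 24 hours, and by -0.61 and -0.49 at 1 hour. The 3 dim ones had means between 54.6 and 64.1. Their 24-hour changes were -0.58, -1.16 and 0.17 per cell, whereas all 6 probe sets were negative at an equal median. At 1 hour 2 of the dim ones were at 0.23 and 0.03 per cell, opposite to the bright ones. The plot of all probe sets against brightness shows the same spread.

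EGR3 read 154 and 163 on both low-Myc arrays, 342 and 333 on the mid-Myc arrays and 28.4 and 33.7 on the high-Myc arrays. All 3 groups were apart, in the order mid-Myc, low-Myc, high-Myc. At 1 hour it had risen by 1.46 per cell (SE 0.10, limma adjusted p = 6.73e-06), or 2.75-fold, the 24th highest change of 12198, where 62.4% of all genes were called higher. The equal-median change was 1.24 (SE 0.10, limma adjusted p = 1.73e-06), where 25.7% of genes were called higher. At 24 hours EGR3 changed by -1.23 per cell (SE 0.10, limma adjusted p = 9.73e-07) and by -2.22 on the equal-median scale. High-Myc against mid-Myc arrays gave -2.69 per cell (SE 0.10, limma adjusted p = 3.65e-09), where 6.57% of genes were called lower, and -3.46 on the equal-median scale, where 30.9% were.

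The high-Myc readings of EGR3 were at or below the filter level, so its 24-hour level is only known to be low. Its 3 other probe sets had means of 16.7 to 33.5, all below the filter, and none showed the fall at 24 hours per cell, with values between 0.14 and 0.72. The rise at 1 hour likewise rests on the 1 bright probe set, as the others lay between -0.21 and 0.13.

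EGR4, a family member best known from neurons, was dim throughout, at 46.0 and 41.5 on the low-Myc, 53.4 and 49.3 on the mid-Myc and 15.8 and 20.9 on the high-Myc arrays. The groups did not overlap, in the same order as for EGR3. Its 24-hour change was -1.13 at an equal median (SE 0.18, limma adjusted p = 6.28e-05). Per cell the same change was -0.56 (SE 0.18, limma adjusted p = 0.0124), and this call was lost with 1 ERCC factor per array (-0.02, limma adjusted p = 0.898), with a curve through the brighter ERCC probe sets (-0.11, limma adjusted p = 0.58), and without high-Myc replicate 1 (-0.33, limma adjusted p = 0.0889) or low-Myc replicate 1 (-0.50, limma adjusted p = 0.0649). At 1 hour EGR4 was 0.52 higher per cell (SE 0.18, limma adjusted p = 0.027), a call that none of the 4 fits without a low-Myc or mid-Myc array kept (limma adjusted p from 0.0629 to 0.117). High-Myc against mid-Myc arrays gave -1.08 per cell (limma adjusted p = 2.57e-04). Its other probe set, with a mean of 23.1, was at 0.09 per cell at 24 hours.

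**Figure D2:**
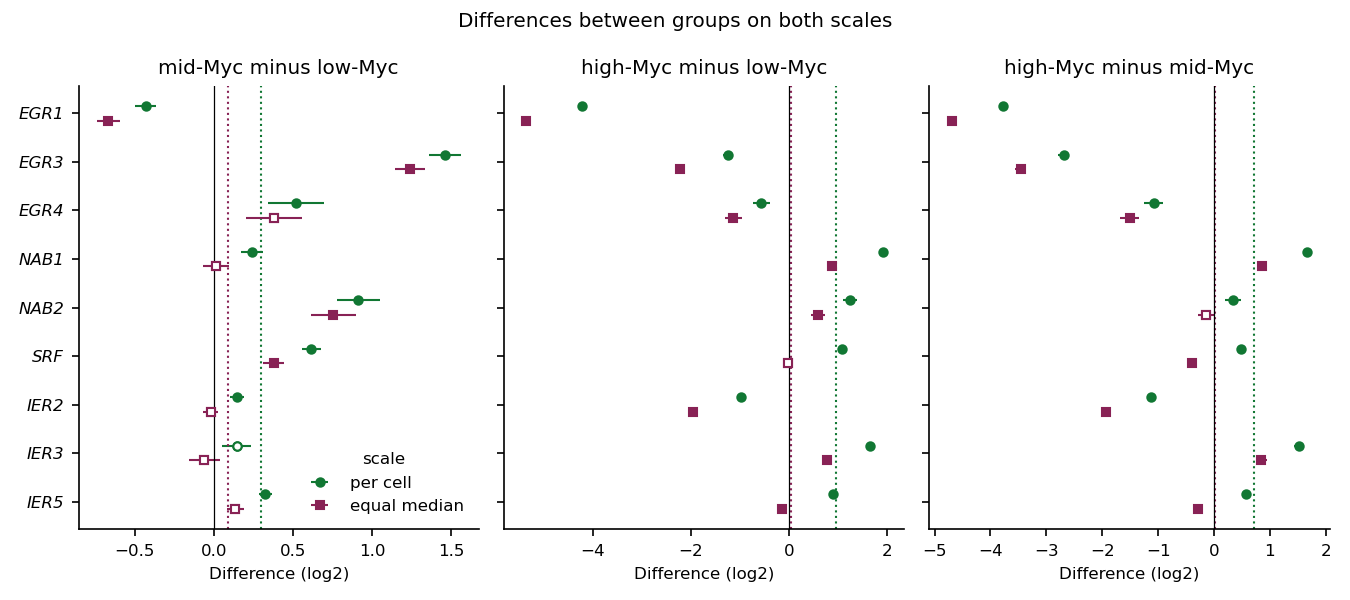
Differences between groups for the 9 genes on the per-cell scale (green circles) and the equal-median scale (purple squares), in log2 with SE from limma. Open symbols did not pass an adjusted p of 0.05, and dotted lines mark the median of all 12198 tested genes on the scale of that colour. EGR1 lies left of 0 in all 3 panels, and EGR3 right of 0 at 1 hour and left of it at 24 hours.

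Both NAB co-repressors were called higher per cell at 1 hour and at 24 hours, as were 62.4% and 90.8% of all genes. The changes were 0.91 and 1.25 for NAB2 and 0.24 and 1.91 for NAB1 (log2). NAB2, which EGR factors are known to induce, read 31.0 and 32.7 on the low-Myc, 45.8 and 51.3 on the mid-Myc and 46.2 and 41.9 on the high-Myc arrays. Both later groups stood above the low-Myc arrays, and their deposited intensities overlapped. At 1 hour NAB2 had risen by 0.91 per cell (SE 0.14, limma adjusted p = 3.19e-04), against a median of 0.30 over all genes, and by 0.76 on the equal-median scale (SE 0.14, limma adjusted p = 1.61e-03). At 24 hours it was higher by 1.25 per cell (limma adjusted p = 1.09e-05) and by 0.61 on the equal-median scale (limma adjusted p = 2.08e-03). That per-cell change of NAB2 was higher than that of 64.7% of all tested genes. From 1 to 24 hours it was 0.34 higher per cell (SE 0.14, limma adjusted p = 0.0406), with -0.15 on the equal-median scale (limma adjusted p = 0.386). That per-cell call was lost with the replicate number as a block (limma adjusted p = 0.0501), with log2(value + 16) (0.23, limma adjusted p = 0.0524), and without high-Myc replicate 1 or 2 or mid-Myc replicate 1 (limma adjusted p = 0.152, 0.0699 and 0.222). NAB2 was read by 1 probe set at a mean of 40.8, close to the filter level.

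NAB1 read 132 and 121 on the low-Myc, 116 and 114 on the mid-Myc and 214 and 206 on the high-Myc arrays. The high-Myc arrays stood apart and the other groups were close. At 24 hours NAB1 had risen by 1.91 per cell (SE 0.07, limma adjusted p = 2.08e-09), or 3.77-fold, and by 0.87 on the equal-median scale (SE 0.08, limma adjusted p = 3.35e-07). Its per-cell change was higher than that of 86.3% of all tested genes. From 1 to 24 hours it rose by 1.67 per cell (limma adjusted p = 8.56e-09). At 1 hour it was 0.24 higher per cell (SE 0.07, limma adjusted p = 0.0131), below the median of all genes, and at 0.01 on the equal-median scale (limma adjusted p = 0.933). That 1-hour call was not kept by the second-brightest probe set (0.06, limma adjusted p = 0.631) or without low-Myc replicate 2 or mid-Myc replicate 1 (limma adjusted p = 0.0713 and 0.0577).

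NAB1 had 7 probe sets, and all 7 were positive per cell at 24 hours, from 0.43 to 1.91. The second-brightest, with a mean of 103, was at 1.71. On the equal-median scale 1 of them, with a mean of 49.2, was at -0.31. At an equal median NAB2 passed the test at 1 hour and NAB1 did not, and the difference between the 2 genes was not itself tested.

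SRF, a factor known to bind CArG boxes, read 249 and 244 on the low-Myc, 298 and 278 on the mid-Myc and 219 and 222 on the high-Myc arrays. The deposited intensities of the 3 groups did not overlap, and mid-Myc was the highest. At 1 hour SRF had risen by 0.62 per cell (SE 0.06, limma adjusted p = 2.95e-05) and by 0.38 on the equal-median scale (SE 0.07, limma adjusted p = 1.21e-03). Its other probe set, at a mean of 34.2, was at -0.0018 per cell and -0.14 at an equal median. At 24 hours SRF was 1.09 higher per cell (SE 0.06, limma adjusted p = 4.72e-08), close to the median gene, with 0.39 for its other probe set (limma adjusted p = 0.0346), and at -0.02 on the equal-median scale (limma adjusted p = 0.838). With quantile normalization, values as deposited or centring on the tested genes that value was -0.21, -0.16 and -0.22, each past the threshold (limma adjusted p = 0.011, 0.0479 and 0.00786). High-Myc against mid-Myc arrays gave 0.48 per cell (limma adjusted p = 4.05e-05) and -0.40 on the equal-median scale (limma adjusted p = 1.68e-04), and the other probe set gave -0.03 on the equal-median scale (limma adjusted p = 0.879).

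The 3 IER genes, named as immediate early response genes, are given in turn. IER2, a small nuclear protein, read 2601 and 2659 on the low-Myc, 2394 and 2281 on the mid-Myc and 605 and 625 on the high-Myc arrays. Every array read IER2 above 194, the second-brightest background probe set. Per cell it was -0.98 (SE 0.04, limma adjusted p = 8.13e-09), or 1.97-fold lower, and on the equal-median scale -1.96 (SE 0.05, limma adjusted p = 1.18e-12), or 3.88-fold lower. High-Myc against mid-Myc arrays gave -1.12 per cell and -1.94 at an equal median (limma adjusted p = 4.62e-09 and 1.36e-12). At 1 hour it was 0.14 higher per cell (SE 0.04, limma adjusted p = 0.0149), below the median gene, and at -0.02 on the equal-median scale (limma adjusted p = 0.789). Neither 1-hour value was settled. The per-cell call was lost with no variance trend (limma adjusted p = 0.0746) and without low-Myc or mid-Myc replicate 1 (limma adjusted p = 0.104 and 0.116). Under quantile normalization, values as deposited, centring on the tested genes and cyclic loess the equal-median value was -0.25, -0.17, -0.14 and -0.21, each past the threshold (limma adjusted p from 0.00385 to 0.0493).

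IER3, known as an inhibitor of cell death in many settings, read 66.3 and 65.4 on the low-Myc, 58.3 and 55.6 on the mid-Myc and 105 and 100.5 on the high-Myc arrays. It rose late, by 1.66 per cell at 24 hours (SE 0.09, limma adjusted p = 4.96e-08) and by 0.78 on the equal-median scale (SE 0.10, limma adjusted p = 7.93e-06). From 1 to 24 hours the rise was 1.52 per cell (limma adjusted p = 1.43e-07), where 81.7% of all genes were called higher, and 0.84 on the equal-median scale (limma adjusted p = 3.83e-06), where 33.3% were. At 1 hour its change was 0.14 per cell (SE 0.09, limma adjusted p = 0.205) and -0.06 on the equal-median scale (limma adjusted p = 0.698). IER3 was read by 1 probe set.

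IER5, which is known for a part in the stress response, moved little in its deposited values, with 1169 and 1114.5 on the low-Myc, 1151 and 1109 on the mid-Myc and 938 and 936 on the high-Myc arrays. Per cell it was 0.90 higher at 24 hours (SE 0.04, limma adjusted p = 9.89e-09) and 0.33 higher at 1 hour (SE 0.04, limma adjusted p = 1.06e-04), each close to the median of all genes. The equal-median value was -0.15 (SE 0.05, limma adjusted p = 0.0252) at 24 hours. That call was lost with no variance trend (limma adjusted p = 0.0835), with its second probe set (-0.0055, limma adjusted p = 0.954) and without high-Myc replicate 1, high-Myc replicate 2 or low-Myc replicate 1 (limma adjusted p = 0.105, 0.0681 and 0.151). The value was between -0.36 and -0.28 under the 4 other scalings. At 1 hour it was at 0.14 on the equal-median scale (limma adjusted p = 0.0678).

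**Figure D3:**
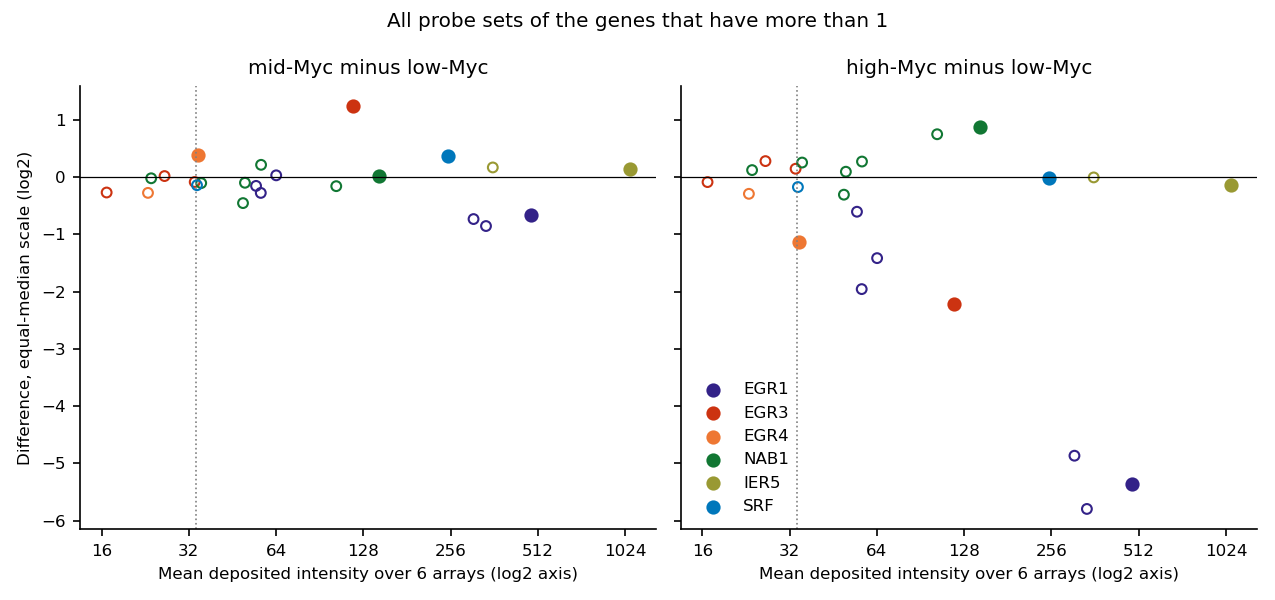
Every probe set of the 6 genes that have more than 1, with the mean deposited intensity over 6 arrays (log2 axis) against the difference on the equal-median scale (log2). Filled points are the probe sets used, open points the others, and the dotted line is the filter level of 33.8. The 3 bright EGR1 probe sets lie together, and the EGR3 and EGR4 points left of the line lie between -0.29 and 0.28.

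In the first hour, counted over the 9 genes, 7 rose and 1 fell per cell, against 62.4% and 0.697% of all genes. On the equal-median scale 3 rose, EGR3, NAB2 and SRF, and 1 fell, EGR1, against 25.7% and 3.39%. Without mid-Myc replicate 1 the per-cell count of rises was 4. From 1 to 24 hours 5 rose and 4 fell per cell, against 81.7% and 6.57% of all genes. The equal-median counts there were 2 risen, NAB1 and IER3, and 6 fallen, EGR1, EGR3, EGR4, IER2, IER5 and SRF, against 33.3% and 30.9%. All 9 genes had arrays that did not overlap between groups in each per-cell comparison, where this held for 96.7%, 80.5% and 94.3% of all genes for 24 against 0 hours, 1 against 0 and 24 against 1. The equal-median counts were 8, 7 and 8 of the 9, where this held for 79.9%, 64.4% and 79.6% of all genes.

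A list of 18 other immediate early genes, drawn up with earlier results known, is given beside these. Of its 15 tested genes 14 rose and 1, FOS, fell at 1 hour on both scales, where 62.4% of all genes rose and 0.697% fell per cell, and 25.7% and 3.39% at an equal median. FOS, the AP-1 partner of JUN, was at -0.18 per cell (limma adjusted p = 0.0357) and -0.38 on the equal-median scale (limma adjusted p = 0.00129). The highest were ATF3, a stress-induced repressor, at 1.25, and the nuclear receptor NR4A1 at 1.21 (log2 per cell). The list's median change was 0.72 per cell, against 0.30 over all genes. At 24 hours 8 of the 15 had fallen and 6 risen per cell, while 13 had fallen and 0 risen on the equal-median scale, with medians of -0.29 and -1.17. Of all genes 2.53% fell and 90.8% rose per cell in that comparison, and 26% and 37.7% at an equal median. FOS (-5.80) and NR4A1 (-3.44) had the largest falls per cell. 

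The genes that act on SRF are given by their counts. Of 5 SRF partner factors 4 rose per cell at 1 hour and 0 fell, with a median of 0.27, where 62.4% of all genes rose and 0.697% fell. ELK4, an ETS-family partner, was at 0.87 (limma adjusted p = 3.11e-04) and ELK1 at 0.60 (limma adjusted p = 5.2e-05). At an equal median these 2 were the ones called higher, at 0.68 and 0.36, where 25.7% of all genes were. At 24 hours all 5 rose per cell, as did 90.8% of all genes, with ELK1 at 1.70 and the SRF coactivator MRTFB at 1.36. At an equal median 2 of the 5 were higher and 1 lower at 24 hours, against 37.7% and 26% of all genes. The lower one was the coactivator MRTFA at -0.29, and ELK4 was at 0.08 (limma adjusted p = 0.618). Of 14 genes of the Ras-Raf-MEK-ERK cascade 9 were tested, of which 7 rose at 1 hour and 9 at 24 hours per cell, with medians of 0.37 and 1.08, near the medians of all genes, of which 62.4% and 90.8% rose. At an equal median 2 of the 9 were higher and 3 lower at 24 hours, against 37.7% and 26% of all genes. HRAS, a Ras GTPase, was at 1.63 and the kinase gene RPS6KA4 at 1.29 (log2 per cell) at 24 hours, and they were the 2 called higher at an equal median, at 0.65 and 0.22. The 3 lower ones were the kinase genes RPS6KA5 (-0.59), MAPK3 (-0.40) and MAP2K1 (-0.18). NuRD is the chromatin complex that NAB2 is known to reach through CHD4. Of its 12 genes 10 rose at 1 hour and 12 at 24 hours per cell, with medians of 0.38 and 1.26, where 62.4% and 90.8% of all genes rose. At an equal median 5 rose and 0 fell at 1 hour (limma), against 25.7% and 3.39% of all genes. At 24 hours 6 rose and 3 fell on that scale, against 37.7% and 26%. The histone deacetylase gene HDAC2 (2.60) and MBD3 (2.28) were the highest at 24 hours.

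**Figure D4:**
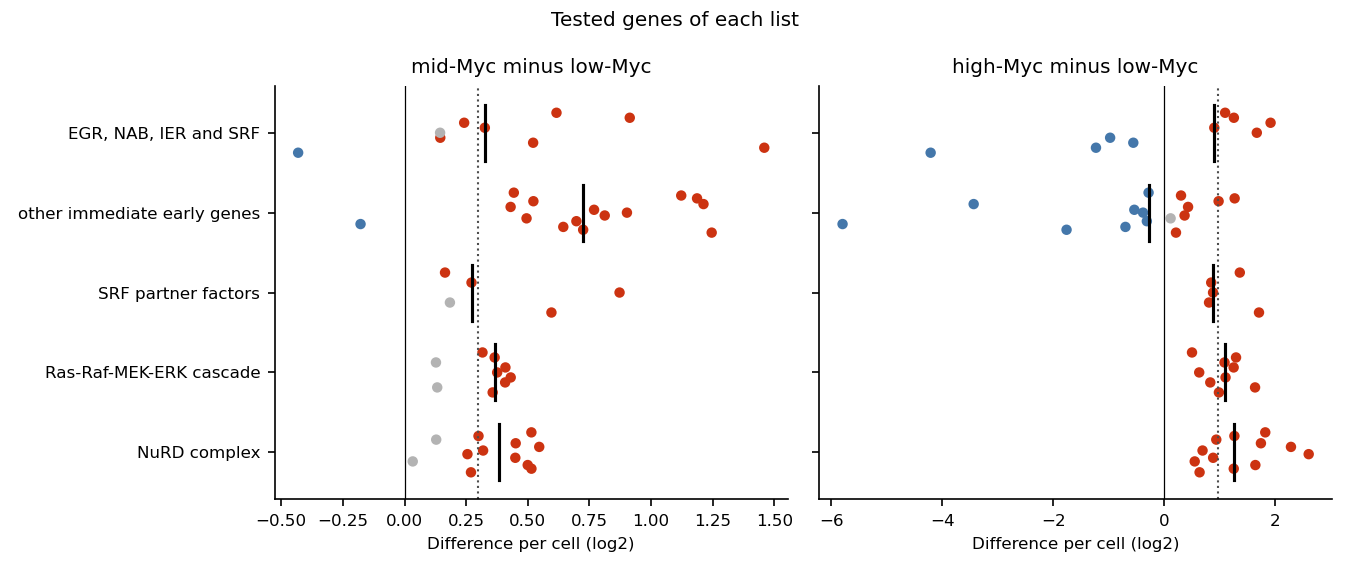
Per-cell differences (log2) of the tested genes of each list at 1 hour and at 24 hours against low-Myc. Red points were called higher, blue lower and grey not called, the black bar is the list's median and the dotted line the median of all tested genes. EGR1 and FOS are the 2 blue points at 1 hour.

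The profiles most like those of EGR1, EGR3 and NAB2 were sought over the 6 arrays by the root mean square difference between centred log2 profiles on the equal-median scale. The nearest to EGR1 were CD69 (0.37), NR4A3 (0.67), RUNDC2A (0.67) and NR4A1 (0.69). Of these RUNDC2A shared the step down at 1 hour, with -0.39 at 1 hour and -3.83 at 24 hours, whereas NR4A1 and NR4A3 were at 1.01 and 0.85 at 1 hour. The nearest to EGR3 were GPR183 (0.16), GPR18 (0.25), CD248 (0.29) and CCL3 (0.30), of which GPR183 was at 0.97 at 1 hour and -2.39 at 24 hours. For NAB2 they were CLP1 (0.06), ZNF184 (0.08), RIPK2 (0.08) and ZBTB21 (0.08), with 1-hour changes between 0.67 and 0.90 and 24-hour changes between 0.49 and 0.71. These distances describe 6 arrays in 3 groups, and shared array noise is part of them.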

How the data were processed

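RNA of 6 samples, with ERCC RNA added by cell number, was labelled from 100 ng and read on 1-colour Affymetrix 3' arrays, per the labels' protocols. The table holds intensities of probe sets (linear), which the authors summarised with MAS5, per the submitters' processing notes. Its version and scaling target are not stated there. Of 49293 human probe sets 45278 carried 1 gene symbol, updated through Entrez identifiers. Per-cell values are log2 intensities minus a robust loess fit (span 0.7, degree 1) to the 100 ERCC values of an array against their 6-array mean. Equal-median values centre each array on its human median. Genes above the 40th percentile of human probe sets were tested with limma 3.58.1 in R 4.3.3, in 1 fit over 6 arrays with a variance trend, two-sided, at an adjusted p of 0.05. The steps were tested on simulated data. The number of arrays limits the precision, and an exact permutation test of 2 against 2 arrays reaches p = 0.333 at the lowest. No label says that duplicates came from separate cultures, so p-values measure only the spread between these arrays, which may be technical. The labels do not say whether mid-Myc arrays were made together with the others. Such a batch cannot be told apart from the 1-hour change or from the difference between high-Myc and mid-Myc arrays.

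Genes named are all members, some cell type markers and, per list, up to 2 with the largest change in a comparison. Some list genes called at an equal median are named too, as are the 4 nearest profiles of EGR1, EGR3 and NAB2. The members, lists and tests were chosen with earlier results of these data known. Alternatives covered the ERCC curve, other scalings, the filter, a pseudocount of 16, the variance trend, the groups in the fit, the probe set, the replicate number as a block and each array left out.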

Additional observations from a re-analysis of the deposited data

Results flagged for a closer look

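EGR3, EGR4 and IER2 moved in opposite directions against low-Myc at 1 hour and at 24 hours per cell, with all calls past the threshold at the settings used in the report. The call of EGR4 at 1 hour was lost in 4 of 4 fits without a low-Myc or mid-Myc array (limma adjusted p from 0.0629 to 0.117), and its 24-hour call with 1 ERCC factor per array or a curve through the brighter ERCC probe sets (-0.02 and -0.11) and without high-Myc or low-Myc replicate 1. The call of IER2 at 1 hour was lost in 3 alternatives. The opposite directions of these 2 genes are therefore not settled. The difference between both times, tested as high-Myc against mid-Myc arrays, was -2.69 (log2 per cell, limma adjusted p = 3.65e-09) for EGR3, -1.08 (limma adjusted p = 2.57e-04) for EGR4 and -1.12 (limma adjusted p = 4.62e-09) for IER2. With arrays centred on the median of all human probe sets EGR3 did so too, with -3.46 (limma adjusted p = 3.81e-12). With quantile normalization, values as deposited or centring on the tested genes SRF did as well, its 24-hour value being -0.21, -0.16 and -0.22. The value was negative on 2 of 2 high-Myc arrays against both mid-Myc arrays for each of them. Genes were flagged only where the difference between both times was called, so that test and this order of arrays add no evidence. Arrays of these groups did not overlap for 94.3% of all genes per cell and 79.6% at an equal median, in either direction. Groups of 2 arrays are too small to test for outlying arrays.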

How the results depend on the processing

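EGR1 kept its direction and its call in every alternative that was run, in all 3 comparisons on both scales, as did EGR3 where its probe set was used. Over single genes 849 alternative values were computed, of which 802 kept direction and call, 25 lost the call, 8 gained it and 14 changed sign, and the cause was not tested. SRF at 1 hour, past the threshold with its main probe set, was the one called value to change sign, and the others lay between -0.02 and 0.14 (log2). In mid-Myc against low-Myc on the equal-median scale NAB1 was at -0.086 with quantile normalization, -0.14 as deposited, -0.10 centred on the tested genes, -0.081 with cyclic loess, -0.0097 with log2(value + 16), -0.16 with the second-brightest probe set, and -0.059 to 0.083 with an array left out. There IER5 was at -0.071 with quantile normalization, -0.015 as deposited and -0.046 with cyclic loess, and SRF at -0.14 with its second probe set (-0.0018 per cell). SRF in high-Myc against low-Myc ranged from -0.041 to 0.0047 on the equal-median scale with an array left out. The count of members lower at 1 hour on the equal-median scale was 2 and not 1 with quantile normalization, as deposited, with cyclic loess and when centred on tested genes, through IER2. Over all 12198 genes the count lower rose as well, from 414 to 1195, 1489, 1034 and 1077 in the same order. Per cell 4 to 7 members rose at 1 hour with an array left out.

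With the second-brightest probe set 4 genes could be read, EGR1, NAB1, IER5 and SRF, so counts fell with the number of genes. Per cell 3 were higher and 1 lower at 24 hours, 1 was higher at 1 hour, and 3 were higher and 1 lower from 1 to 24 hours. Of all 12193 genes tested there 11075 were higher and 306 lower per cell at 24 hours. At 1 hour 7609 were higher, and from 1 to 24 hours 9961 were higher and 798 lower. On the equal-median scale 1 was higher and 1 lower at 24 hours, 0 were higher at 1 hour (limma), and 1 was higher and 2 lower from 1 to 24 hours. Of all genes 4596 were higher and 3168 lower on that scale at 24 hours. At 1 hour 3136 were higher, and from 1 to 24 hours 4058 were higher and 3771 lower. The groups share replicate numbers, but same-numbered arrays of different groups did not deviate together (correlations of -0.0034 to 0.0022 across genes). With the replicate block 7 members rose and 1 fell per cell at 1 hour, against 7583 and 87 of all 12198 genes. At 24 hours 5 rose and 4 fell, against 11085 and 307 of all genes. From 1 to 24 hours 4 rose and 4 fell, NAB2 being lost, against 9955 and 807. Over all genes the 1-hour equal-median counts moved most, from 3139 higher and 414 lower to 955 higher with quantile normalization, 1489 lower as deposited and 200 lower without low-Myc replicate 2, and 54 genes were lower per cell without that array, against 85. Values below 194, the second-brightest background probe set, are limited by background: EGR4, NAB2 and IER3 on all arrays, EGR1 on high-Myc, EGR3 on low-Myc and high-Myc, and NAB1 on low-Myc and mid-Myc arrays.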
